A study of Mus musculus with 8 samples.

Results

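The genes described here are targets and regulators of the sterol regulatory element-binding proteins (SREBPs), the transcription factors that control sterol and fatty acid synthesis. They were followed in fibroblasts sorted from mouse colon. Of 33 listed genes, 29 were measured, out of 30632 genes named on the array. They were 17 genes of sterol synthesis, 5 regulators and 7 genes of fatty acid synthesis. A gene counted as measured where at least 1 transcript cluster, the array's unit of measurement, named that gene alone, and where several did, the brightest on average was kept. Acat2 had no such cluster here, and Tm7sf2, Srebf1 and Scd2 were named only together with other genes, so none of these was used. All 29 measured genes passed the filter on dim clusters.

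The cells came from the colon of wild-type C57BL/6J mice without any treatment named in the labels, which also give no age. Both groups had been sorted as lacking Epcam, CD45 and CD31 and as carrying gp38, the surface protein podoplanin. They differed only in surface CD90, the glycoprotein coded by Thy1: samples 13, 15, 17 and 19 were CD90-negative and samples 14, 16, 18 and 20 CD90-positive, 1 array each. Tissue of 4 mice was used. Which pairs of samples came from one animal is not stated, so p-values measure only the spread between these samples. Values are log2 expression as deposited, means are given ± SD with n = 4. A difference is the CD90-positive mean less the CD90-negative mean. A gene was called when its limma p-value, adjusted by the Benjamini-Hochberg method over the 17155 genes tested, was under 0.05. The number of arrays limits the precision. Some deposited log2 values went up to 19.9, more than the 16 bits of a scanner can hold, so a fold on this scale may not equal a ratio of RNA amounts.

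Cells make cholesterol from acetyl-CoA through mevalonate, isoprenoid diphosphates, squalene and lanosterol. SREBP2, coded by Srebf2, mainly drives the genes of this route, and SREBP1, coded by Srebf1, mainly those of fatty acid synthesis. Both are made as membrane proteins of the endoplasmic reticulum. When sterols are scarce, the escort protein SCAP carries them to the Golgi, where proteases release the active factor; when sterols are plentiful, INSIG proteins hold SCAP back. Stromal cells use the products for membranes, for protein prenylation and for lipid-modified signalling proteins.

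The sort marker agreed in direction with the labels, with Thy1 between 5.46 and 5.57 in CD90-negative and between 7.03 and 8.11 in CD90-positive samples, and Pdpn was at 13.17 and 13.2 on average. Ptprc, the CD45 gene, lay at 4.57 and 4.75, under the filter of 5.36. Samples 13 and 14 stood apart from the others on sex-linked genes, with Xist at 16.16 and 16.27 against at most 9.32 elsewhere. Uty was at 5.49 and 5.56 in samples 13 and 14 against 9.65 to 10.06 elsewhere. Pan-fibroblast genes were high throughout, with list means from 14.74 to 15.07. Epcam, whose protein the sort excluded, was measured between 7.21 and 9.4, highest in samples 20 and 13. These also carried the most epithelial RNA: the mean of 13 tested epithelial markers was 9.58 and 9.68 there, against 7.68 to 8.52 elsewhere. Values without sample 13, or without samples 13 and 14, are given below where this changed the call or direction of a member or a list's count. In sorted bulk RNA, fewer cells of one kind and less RNA per cell cannot be told apart.

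Sterol synthesis genes were lower in the CD90-positive fibroblasts, and fatty acid synthesis genes followed in part. Of the 17 sterol genes, 12 fell and 0 rose, with a median difference of -1.08. Among all genes tested, 29.6% were called, 15.6% lower and 13.9% higher, and the median difference was -0.01. The populations did not overlap in 14 of the 17, all lower in CD90-positive samples, whereas 32.2% of all genes did not overlap and 17.3% were lower without overlap. Of the 7 fatty acid genes, 4 fell and 0 rose, with a median difference of -0.31. Of the 5 regulators, 2 fell and 0 rose, with a median of -0.29. No test was made of the difference between these branches. The largest differences belonged to Sqle, Fdps and Hmgcs1, and the members nearest 0 were Ggps1 and Hsd17b7.

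**Figure D1:**
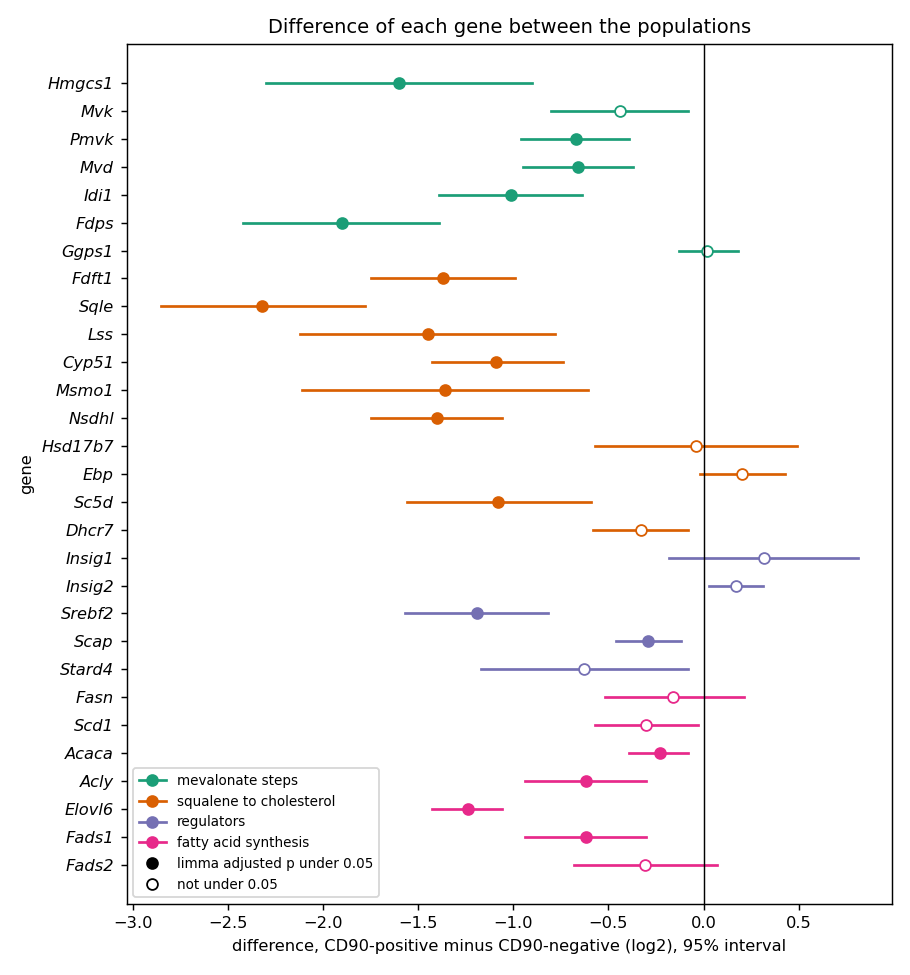
Difference between the populations for each of the 29 measured genes, CD90-positive minus CD90-negative on the log2 scale (horizontal axis), with its 95% interval from limma; colours mark the branch, filled points a limma adjusted p under 0.05. Sterol genes reach from -2.32 for Sqle to 0.2 for Ebp, and of the 18 filled points all lie left of 0.

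SREBPs bind sterol regulatory elements in promoters and act there with the factors NF-Y and Sp1, and the promoters of 5 members are printed to show these letters in genes that fell and in genes that were not called. The windows hold the 250 bases before the start in RefSeq's mouse annotation (build GRCm38.p6), 5′ to 3′ on the gene's strand. Capitals mark matches on either strand to TCACNCCAC or TCACCCCA (forms of the sterol regulatory element), CACGTG (E-box), CCAAT (the NF-Y box, ATTGG on the other strand) and GGGCGG (the Sp1 box, CCGCCC on the other strand). The forms of the element overlap each other by construction, and TCACCCCA was added after the windows had been read. Hmgcs1, Nsdhl and Srebf2 fell, while Insig1 and Ggps1 were not called.
Hmgcs1: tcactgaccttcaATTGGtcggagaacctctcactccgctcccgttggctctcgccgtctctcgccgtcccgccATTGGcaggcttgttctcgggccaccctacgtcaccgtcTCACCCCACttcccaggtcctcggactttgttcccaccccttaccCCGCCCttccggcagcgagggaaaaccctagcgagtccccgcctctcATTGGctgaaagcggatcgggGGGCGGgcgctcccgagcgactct
Nsdhl: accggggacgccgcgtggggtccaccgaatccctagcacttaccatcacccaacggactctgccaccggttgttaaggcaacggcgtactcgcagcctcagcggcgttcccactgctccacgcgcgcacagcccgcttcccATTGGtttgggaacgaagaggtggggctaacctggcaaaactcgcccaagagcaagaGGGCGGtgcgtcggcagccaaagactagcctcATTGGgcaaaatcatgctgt
Srebf2: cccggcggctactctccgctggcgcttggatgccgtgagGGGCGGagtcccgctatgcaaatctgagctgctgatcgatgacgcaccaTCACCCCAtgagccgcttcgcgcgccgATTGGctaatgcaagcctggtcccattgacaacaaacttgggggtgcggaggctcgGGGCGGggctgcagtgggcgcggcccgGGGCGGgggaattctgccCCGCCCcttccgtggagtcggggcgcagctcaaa
Insig1: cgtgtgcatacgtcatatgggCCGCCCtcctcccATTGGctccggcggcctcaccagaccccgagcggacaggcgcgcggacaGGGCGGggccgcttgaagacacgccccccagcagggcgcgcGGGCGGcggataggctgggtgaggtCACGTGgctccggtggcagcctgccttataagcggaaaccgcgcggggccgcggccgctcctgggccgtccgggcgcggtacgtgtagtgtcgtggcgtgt
Ggps1: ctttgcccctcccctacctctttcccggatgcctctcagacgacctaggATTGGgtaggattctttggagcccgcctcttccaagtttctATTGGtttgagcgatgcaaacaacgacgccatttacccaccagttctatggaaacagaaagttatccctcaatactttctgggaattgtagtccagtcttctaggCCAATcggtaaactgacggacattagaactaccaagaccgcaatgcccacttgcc
Hmgcs1 lies on the plus strand at chr13:119690101-119690350, Nsdhl at chrX:72918271-72918520, Srebf2 at chr15:82147019-82147268 and Insig1 at chr5:28071162-28071411. Ggps1 lies on the minus strand at chr13:14063489-14063738.

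In Hmgcs1 the sterol regulatory element started 137 bases before the gene, between CCAAT matches that started 176 and 45 bases before it. Srebf2 had the shorter form TCACCCCA, starting 162 bases before the gene, followed by a CCAAT match 135 bases before it. Nsdhl, which fell by 1.4, had CCAAT and GGGCGG but no match to the searched forms of the sterol regulatory element. The same was true of Insig1. Less exact forms of the element were not searched, so these windows may still hold them. Ggps1 had 3 CCAAT matches and none of the others. Promoters were held for 23 of the 29 measured genes and not for Fdps, Fdft1, Sqle, Stard4, Scd1 and Fads1. TCACNCCAC was found in 1 of the 23, Hmgcs1, and in 1.22% of the 27025 genes with a promoter in the table. The full element, which has a C at the free base and an A before the first T, was found in 0 of the 23 and in 0.081% of all. TCACCCCA was found in 2 of the 23 and in 1.54% of all. CCAAT was found in 18 of the 23 (78.3%) against 37.5% of all genes, and GGGCGG also in 18 of the 23 against 35.4%. In these counts a gene with several annotated starts had a match if any of its windows did. The 27025 genes were not limited to those tested on the array, as the 23 were, so the sets are unlike. Among the 14 members with a promoter that fell, 10 had CCAAT and 11 GGGCGG; among the 9 not called, 8 had CCAAT and 7 GGGCGG. The E-box CACGTG was found in 5 of the 23, among them Insig1, and in 6.86% of all genes. A match in these letters is a description of the window and shows no binding.

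In the mevalonate steps, 5 of 7 measured genes fell: Hmgcs1, Pmvk, Mvd, Idi1 and Fdps. Hmgcs1 codes for the synthase that makes HMG-CoA, the substrate from which mevalonate is formed. It was at 12.23, 10.7, 11.21 and 10.88 in CD90-negative samples 13, 15, 17 and 19, and at 9.79, 9.72, 9.3 and 9.83 in CD90-positive samples 14, 16, 18 and 20. Sample 13 was the highest, and every CD90-negative sample lay above every CD90-positive one. The difference was -1.6 (SE 0.31, limma adjusted p = 0.00468), and without sample 13 it was -1.27 (limma adjusted p = 0.000827).

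Fdps codes for farnesyl diphosphate synthase, which joins isoprenoid units to the compound that feeds both squalene and protein prenylation. Its values were 11.06, 10.7, 10.14 and 10.44 in CD90-negative and 8.55, 9.05, 8.24 and 8.9 in CD90-positive samples, again without overlap. The difference was -1.9 (SE 0.23, limma adjusted p = 0.000323), a value that only 1.2% of all genes tested reached or passed on the lower side. Idi1, the isomerase of isopentenyl diphosphate, fell from 9.06 ± 0.31 to 8.05 ± 0.21 (limma adjusted p = 0.00182). Sample 13 was at 9.53 for Idi1 and the other CD90-negative samples between 8.87 and 8.92.

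The mevalonate kinases and the decarboxylase had smaller differences. Pmvk, phosphomevalonate kinase, fell from 7.46 ± 0.11 to 6.79 ± 0.25, and Mvd, mevalonate diphosphate decarboxylase, from 7.29 ± 0.27 to 6.63 ± 0.078 (limma adjusted p = 0.00391 and 0.00461). The CD90-positive mean of Mvd lay below 6.73, the median over the rows of negative control probes, so the size of its difference is uncertain. Mvk, mevalonate kinase, was not called at 7.68 ± 0.34 and 7.24 ± 0.12 (difference -0.44, limma adjusted p = 0.069), although its populations did not overlap. The difference of Mvk was -0.28 without sample 13 (limma adjusted p = 0.0534) and -0.24 without samples 13 and 14 (limma adjusted p = 0.0905). With array weights it was called lower (limma adjusted p = 0.0451).

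Ggps1 was the mevalonate gene with a difference near 0. It codes for the synthase of geranylgeranyl diphosphate, which leaves the sterol route for the prenylation of small GTPases. Its values were 10.51, 10.3, 10.4 and 10.49 in CD90-negative and 10.51, 10.42, 10.44 and 10.41 in CD90-positive samples, so the populations overlapped throughout. The difference was 0.02, with a 95% interval from -0.13 to 0.18 (limma adjusted p = 0.833), and -0.02 when each array was centred on its median. This interval lies above that of Fdps, which ran from -2.42 to -1.39, but the difference between the genes was not tested.

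From squalene to cholesterol, 7 of 10 measured genes fell: Fdft1, Sqle, Lss, Cyp51, Msmo1, Nsdhl and Sc5d. Sqle codes for squalene epoxidase, a rate-limiting enzyme of the later route. It was at 12.3, 11.22, 11.43 and 11.37 in CD90-negative and at 9.28, 9.56, 8.94 and 9.28 in CD90-positive samples. The lowest CD90-negative sample lay well above the highest CD90-positive one. The difference was -2.32 (SE 0.23, limma adjusted p = 0.000125), the largest among the 29 genes, and -2.08 without sample 13 (limma adjusted p = 2.74e-05).

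Fdft1, squalene synthase, makes squalene from farnesyl diphosphate and so opens the branch committed to sterols. It was at 9.13, 8.36, 8.48 and 8.41 in CD90-negative and at 7.28, 7.21, 7.08 and 7.33 in CD90-positive samples, and it fell by 1.37 (SE 0.17, limma adjusted p = 0.00034). The populations did not overlap, and the CD90-positive samples lay within a narrower range. Lss, lanosterol synthase, which closes the rings, fell from 7.84 ± 0.68 to 6.4 ± 0.14 (limma adjusted p = 0.00608), the latter below the negative control rows. Sample 13 was at 8.8 for Lss and the other CD90-negative samples between 7.24 and 7.79. Without sample 13 the difference of Lss was -1.13 in place of -1.45.

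Of the enzymes that remove methyl groups from lanosterol, Cyp51, Msmo1 and Nsdhl fell and Hsd17b7 was not called. Cyp51, the lanosterol demethylase, fell from 9.33 ± 0.29 to 8.24 ± 0.18, Msmo1, the methylsterol monooxygenase, from 9.4 ± 0.74 to 8.04 ± 0.26, and Nsdhl, the sterol dehydrogenase that acts after it, from 10.17 ± 0.33 to 8.77 ± 0.077 (limma adjusted p = 0.000774, 0.0143 and 0.000176). Nsdhl was at 10.64, 10.09, 9.86 and 10.09 in CD90-negative and at 8.87, 8.77, 8.68 and 8.75 in CD90-positive samples. The CD90-positive values of Nsdhl spread less than those of the other genes that fell in this branch. Hsd17b7, the reductase that follows Nsdhl, was not called at 8.16 ± 0.37 and 8.12 ± 0.4 (limma adjusted p = 0.929). Its CD90-negative values were 8.71, 7.99, 7.96 and 7.98 and its CD90-positive values 7.54, 8.37, 8.2 and 8.39, so that samples 13 and 14 lay opposite to the others. Without these samples Hsd17b7 was called higher in the CD90-positive population (difference 0.34, limma adjusted p = 0.0126).

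Of the last steps, Sc5d fell, and Ebp and Dhcr7 were not called. Ebp, the sterol isomerase, was at 7.33 ± 0.093 and 7.54 ± 0.19 and was not called (difference 0.2, limma adjusted p = 0.162), although leaving out sample 14 made it a call of higher (0.28, limma adjusted p = 0.0404), and so did array weights (0.3, limma adjusted p = 0.0162). Sc5d, the lathosterol desaturase, fell from 11.0 ± 0.47 to 9.92 ± 0.16 (limma adjusted p = 0.00526). Dhcr7, the reductase of the final step, was at 7.08 ± 0.19 and 6.75 ± 0.15 without overlap and was not called (difference -0.33, limma adjusted p = 0.0529). It was called lower without sample 17 (limma adjusted p = 0.049), with a filter at the negative control rows (limma adjusted p = 0.0446) and with arrays centred on their medians (limma adjusted p = 0.0327). Without samples 13 and 14 the difference of Dhcr7 was -0.19 (limma adjusted p = 0.152). Each of the 12 sterol genes that fell kept its call in all 18 alternative settings.

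**Figure D2:**
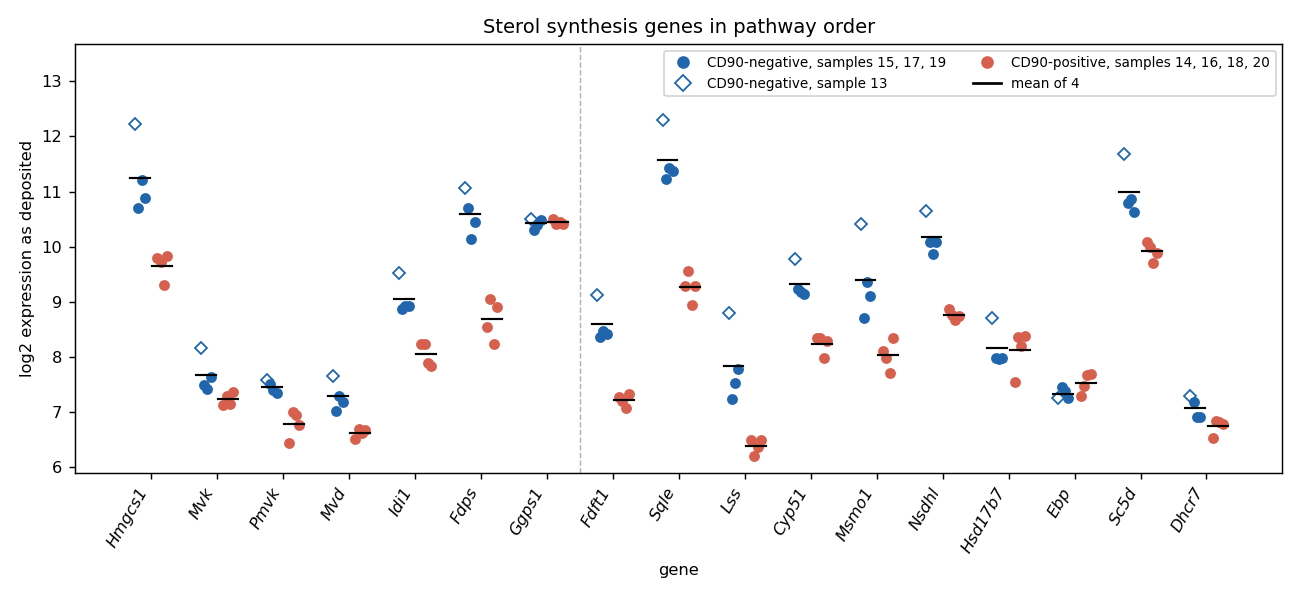
Deposited log2 expression (vertical axis) of the 17 measured sterol synthesis genes in pathway order, mevalonate steps left and squalene to cholesterol right of the dashed line; points are samples, bars the mean of 4, and the open diamond is CD90-negative sample 13. Sample 13 is the highest CD90-negative sample in 16 of the 17 genes, and Ggps1, Hsd17b7 and Ebp are the genes whose populations overlap.

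Within the CD90-negative population, sample 13 held the highest value in 16 of 17 sterol genes, against 24.8% of all genes tested, and Ebp was the exception. Within the CD90-positive population sample 18 was the lowest in 8 of 17 and the highest in 0. The mean over the 17 genes was 9.57 in sample 13 and 8.87, 8.93 and 8.92 in samples 15, 17 and 19, and it was 8.06, 8.19, 7.99 and 8.18 in samples 14, 16, 18 and 20. Without sample 13 the count was again 12 lower and 0 higher. Without samples 13 and 14 it was 12 lower and 1 higher, the latter being Hsd17b7.

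Sample 13 also had the highest epithelial mean, at 9.68. Sample 20 had an epithelial mean of 9.58, and its sterol mean of 8.18 lay within the range of the other CD90-positive samples, 7.99 to 8.19. Over the populations 0 of 13 tested epithelial markers were called, and their list means ran from 7.68 to 9.68 in CD90-negative and from 8.14 to 9.58 in CD90-positive samples. The brightest markers were Car1, Muc2 and Krt8. Krt8, an epithelial keratin, reached 12.42 in sample 13 and 12.62 in sample 20 but no more than 11.29 elsewhere. Sample 13 was also the only CD90-negative sample with high Xist and low Uty. Sample 14, with the same pattern among CD90-positive samples, had a sterol mean of 8.06. The part of epithelial RNA, or of this difference in sex-linked genes, in the values of sample 13 was not tested.

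**Figure D3:**
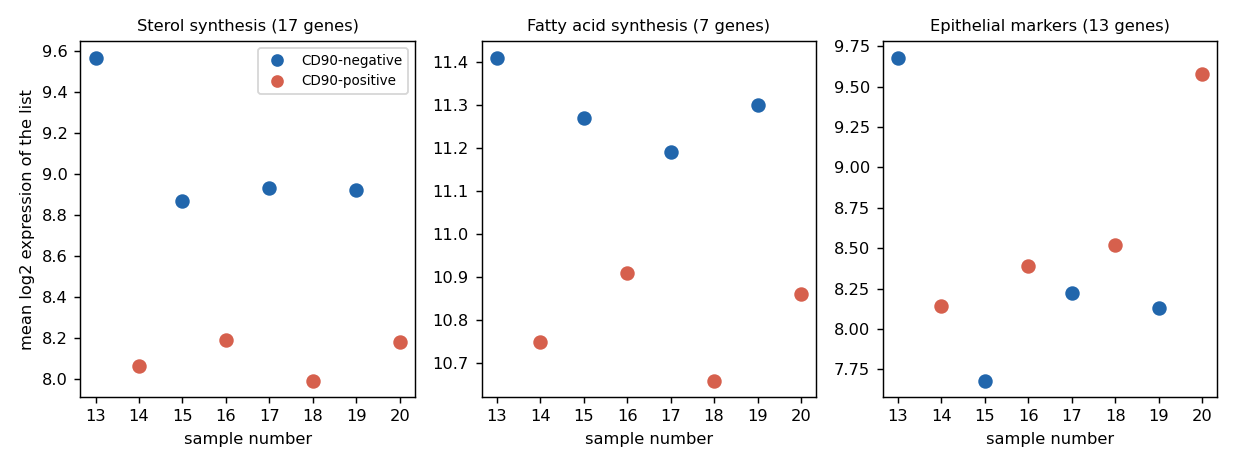
Mean log2 expression (vertical axis, not starting at 0) of 17 sterol genes, 7 fatty acid genes and 13 epithelial markers in each of the 8 samples (horizontal axis). The sterol mean of sample 13 is 9.57 against at most 8.93 in the other CD90-negative samples, and the epithelial mean is highest in samples 13 and 20, at 9.68 and 9.58.

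Among the regulators, Srebf2 and Scap fell, and the genes of the INSIG inhibitors were not called. Srebf2 was at 12.13, 11.57, 11.47 and 11.69 in CD90-negative and at 10.31, 10.8, 10.33 and 10.64 in CD90-positive samples. The populations did not overlap, and the difference was -1.19 (SE 0.17, limma adjusted p = 0.000761). Srebf2 is itself an SREBP target, and it kept its call in all 18 alternative settings, with differences between -1.29 and -0.99. Scap, the escort of both SREBPs, fell by a smaller step from 9.69 ± 0.11 to 9.39 ± 0.071 (limma adjusted p = 0.0184). Scap lost its call without sample 19 (limma adjusted p = 0.0515) and after another quantile normalization (limma adjusted p = 0.077).

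Insig1, an SREBP target that also retains SCAP in the endoplasmic reticulum, had a mean difference of the opposite sign to the sterol genes. Its values were 11.89, 10.72, 11.24 and 11.06 in CD90-negative and 11.43, 11.49, 11.74 and 11.52 in CD90-positive samples. Sample 13 lay above all CD90-positive samples and the other CD90-negative samples below them. The difference was 0.32 with a 95% interval from -0.18 to 0.81 (limma adjusted p = 0.317). Without sample 13 Insig1 was called higher in CD90-positive samples (difference 0.54, limma adjusted p = 0.0189), as it was without samples 13 and 14 (0.57, limma adjusted p = 0.0216) and under array weights (0.44, limma adjusted p = 0.0419). Without sample 15 the difference of Insig1 was 0.15 and was not called (limma adjusted p = 0.615).

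Insig2, the second INSIG, was at 9.45, 9.53, 9.53 and 9.58 in CD90-negative and at 9.65, 9.79, 9.69 and 9.64 in CD90-positive samples. The populations did not overlap, with the CD90-positive samples higher, but the difference of 0.17 was not called (limma adjusted p = 0.0746) except after another quantile normalization (0.22, limma adjusted p = 0.0238). Stard4, a carrier that moves cholesterol between membranes, was at 9.19, 7.99, 8.42 and 8.35 in CD90-negative and at 7.92, 7.74, 7.59 and 8.18 in CD90-positive samples. Its populations overlapped through samples 15 and 20, and the difference of -0.63 was not called (limma adjusted p = 0.0828). The difference of Stard4 was -0.39 without sample 13 (limma adjusted p = 0.102), and -0.79 and called lower without sample 15 (limma adjusted p = 0.0376).

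Fatty acid synthesis turns citrate into acetyl-CoA and malonyl-CoA and builds and modifies acyl chains from them. Of the 7 measured genes, Acaca, Acly, Elovl6 and Fads1 fell. Elovl6, the elongase that extends palmitate, was at 10.74, 10.9, 10.56 and 10.72 in CD90-negative and at 9.55, 9.48, 9.4 and 9.53 in CD90-positive samples. Within each population the samples were close together and the populations lay far apart. The difference was -1.24 (SE 0.08, limma adjusted p = 1.04e-05), with the smallest p-value of the 29 genes, and it was the same without sample 13 (-1.24, limma adjusted p = 4.41e-05).

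Acly, ATP citrate lyase, supplies cytosolic acetyl-CoA to both the sterol and the fatty acid route. It was at 10.82, 10.12, 10.38 and 10.44 in CD90-negative and at 9.79, 9.96, 9.65 and 9.87 in CD90-positive samples, and it fell by 0.62 (SE 0.14, limma adjusted p = 0.0111). Every CD90-positive sample lay below every CD90-negative one. Acaca, acetyl-CoA carboxylase, which makes malonyl-CoA, fell by 0.23, from 9.38 ± 0.11 to 9.15 ± 0.031 (limma adjusted p = 0.0321). This call was lost when sample 13, 15, 16, 18, 19 or 20 was left out, with limma adjusted p up to 0.0882, without samples 13 and 14 together (limma adjusted p = 0.0757), and after another quantile normalization (limma adjusted p = 0.153).

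Fasn, the fatty acid synthase, was not called. It was at 11.37, 10.68, 10.77 and 10.94 in CD90-negative and at 10.62, 10.95, 10.61 and 10.95 in CD90-positive samples, and the populations overlapped. The difference was -0.16, with a 95% interval from -0.52 to 0.21 (limma adjusted p = 0.508), -0.01 without sample 13 and 0.04 without samples 13 and 14. A change in Fasn as large as that of Elovl6 or Sqle lies outside this interval.

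Of the desaturases, Fads1 fell, and Fads2 and Scd1 were not called. Fads1, the delta-5 desaturase of polyunsaturated fatty acids, was at 12.66, 12.95, 12.62 and 12.68 in CD90-negative and at 11.93, 12.47, 11.87 and 12.18 in CD90-positive samples and fell by 0.62 (SE 0.14, limma adjusted p = 0.0102). Fads2, which acts before it in the same route, was at 13.65 ± 0.26 and 13.34 ± 0.27 with overlapping populations (difference -0.31, limma adjusted p = 0.201). A second cluster of Fads2 differed by -0.36, and with consecutive title numbers taken as pairs, which the labels do not state, Fads2 was called lower (limma adjusted p = 0.0227). Without sample 15 the difference of Fads2 was -0.2 (limma adjusted p = 0.399). Sample 16 was the highest CD90-positive sample for both Fads1 and Fads2, and sample 15 the highest CD90-negative one.

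Scd1, the stearoyl-CoA desaturase that makes monounsaturated fatty acids, was at 11.24, 10.91, 11.39 and 11.13 in CD90-negative and at 11.12, 10.79, 10.8 and 10.76 in CD90-positive samples. Sample 14 lay among the CD90-negative samples, and the difference of -0.3 was not called (limma adjusted p = 0.0952). Scd1 was called lower without sample 14 (-0.38, limma adjusted p = 0.0356), without sample 15 (-0.39, limma adjusted p = 0.0379) and under array weights (-0.37, limma adjusted p = 0.0139). A second, dimmer cluster of Scd1 had means of 6.97 and 7.0, a difference of 0.03. Scd1 belongs to a family of similar genes on the same chromosome, so its probes may also bind RNA of its relatives and its values are uncertain.

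**Figure D4:**
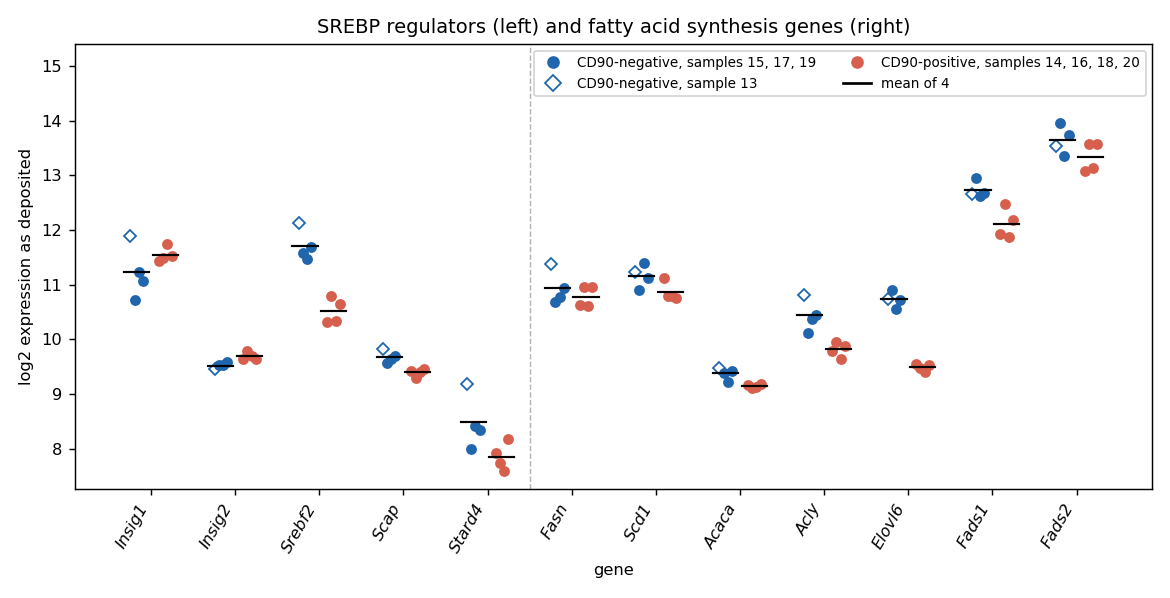
Deposited log2 expression (vertical axis) of 5 regulators, left of the dashed line, and 7 fatty acid synthesis genes, right of it; points are samples, bars the mean of 4, and the open diamond is CD90-negative sample 13. Srebf2 and Elovl6 show separate populations, while Insig1 separates them only without sample 13, in the opposite direction.

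Over the 7 fatty acid genes the mean was 11.41, 11.27, 11.19 and 11.3 in samples 13, 15, 17 and 19 and 10.75, 10.91, 10.66 and 10.86 in samples 14, 16, 18 and 20. Sample 13 was the highest CD90-negative sample in 3 of the 7 genes. Adipocytes are rich in lipogenic enzymes, so their markers were read beside these values. Of 13 listed adipocyte genes 12 were measured and 7 lay under the filter, among them Adipoq at 3.93 and 3.89 and Plin1 at 4.86 and 4.71. Of the 5 tested, Pparg, the receptor that drives adipocyte differentiation, rose from 7.35 ± 0.45 to 10.28 ± 0.4 (limma adjusted p = 5.45e-05), and the triglyceride lipase Pnpla2 fell by 0.57 (limma adjusted p = 0.00707). The mean over the 12 ran from 5.35 to 5.58 in CD90-negative and from 5.63 to 5.77 in CD90-positive samples. The part of this list in the fatty acid result was not tested.

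Other genes linked to SREBPs, among them further genes of lipid synthesis such as Elovl5, moved in both directions. Of 25 listed genes 16 were tested, of which 6 fell and 3 rose, with a median difference of -0.01, equal to that of all genes. Of all genes, 15.6% were called lower and 13.9% higher. The counts were 5 lower and 4 higher without sample 13, and 5 lower and 3 higher without samples 13 and 14. Cyb5b, a cytochrome b5 of the outer mitochondrial membrane, fell from 9.69 ± 0.21 to 8.98 ± 0.18, Pcyt2, an enzyme of phosphatidylethanolamine synthesis, from 7.78 ± 0.19 to 7.22 ± 0.088, and Mid1ip1, an activator of acetyl-CoA carboxylase, from 7.58 ± 0.087 to 7.09 ± 0.089 (limma adjusted p = 0.00306, 0.00306 and 0.00109). Me1, the malic enzyme that supplies NADPH for lipid synthesis, rose from 9.42 ± 0.088 to 10.08 ± 0.072 (limma adjusted p = 0.000149). The other genes that rose, named after their values were seen, were the elongase Elovl5 and the acyltransferase Gpam, by 0.36 and 0.4 (limma adjusted p = 0.0163 and 0.0483). Those that fell besides, named in the same way, were Aacs, Tmem97 and Rdh11. They differed by -0.59, -0.5 and -0.3 (limma adjusted p = 0.0421, 0.00754 and 0.016). Me1 and Elovl6 thus moved in opposite directions, each without overlap between the populations.

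A set of genes codes for proteins of the endoplasmic reticulum that degrade INSIG and sterol enzymes. Of 9 tested genes 1 fell and 0 rose, with a median difference of -0.08, where 15.6% of all genes were called lower. The gene that fell was Erlin1, which codes for a cholesterol-binding membrane protein of this machinery. Erlin1 was at 12.08, 12.75, 12.38 and 12.58 in CD90-negative and at 10.08, 10.53, 10.24 and 10.16 in CD90-positive samples, a difference of -2.2 (SE 0.15, limma adjusted p = 1.41e-05). These values are from the brighter of 2 clusters that named Erlin1 alone. Over the 18 alternative settings the difference of Erlin1 ran from -2.32 to -1.66, and the call was kept in each. Its partner Erlin2 was at 10.73 ± 0.092 and 10.82 ± 0.18 (difference 0.09, limma adjusted p = 0.533). Aup1, Vcp and Ubxn8 were not called, with differences of -0.14, -0.16 and -0.24.

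In the isoprenoid branches that start from farnesyl and geranylgeranyl diphosphate, 2 of 11 tested genes fell and 0 rose. Their median difference was -0.11. This count is near the share over all genes tested, of which 15.6% were called lower. Pggt1b, a subunit of the enzyme that attaches geranylgeranyl groups to proteins, fell from 7.86 ± 0.083 to 7.38 ± 0.21 (limma adjusted p = 0.00867). Icmt, which methylates prenylated proteins, fell by 0.22 (limma adjusted p = 0.036) and lost its call without any 1 of samples 15 to 20, with limma adjusted p up to 0.101. It kept the call in 9 of 18 alternative settings. Coq2 and Rce1 were not called, with differences of -0.18 and -0.2.

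Genes of oxysterols, the liver X receptors (LXRs) and cholesterol handling also went both ways. Of 13 tested genes 5 fell and 2 rose, with a median difference of -0.12. Over all genes tested, 15.6% were called lower and 13.9% higher. Ch25h, the cholesterol hydroxylase that makes an oxysterol able to block SREBP processing, fell from 8.52 ± 0.14 to 7.35 ± 0.41 (limma adjusted p = 0.00172). Cyp27a1, a mitochondrial sterol hydroxylase, fell from 11.48 ± 0.28 to 10.55 ± 0.19 (limma adjusted p = 0.00177). The others that fell, named after their values were seen, were Mylip, Lipa and Osbpl8, with differences of -0.93, -0.5 and -0.18. Ch25h and Cyp27a1 were lower in the same population as the sterol synthesis genes, and a link between them was not tested. Npc2, the lysosomal cholesterol-binding protein, rose from 8.46 ± 0.089 to 9.26 ± 0.027, and Nr1h3, the gene of LXR alpha, from 7.86 ± 0.12 to 8.27 ± 0.067 (limma adjusted p = 2.93e-05 and 0.00405). The number that fell in this list was 4 without samples 13 and 14, 3 without sample 15 or 16 and 2 without sample 17 or 19.

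**Figure D5:**
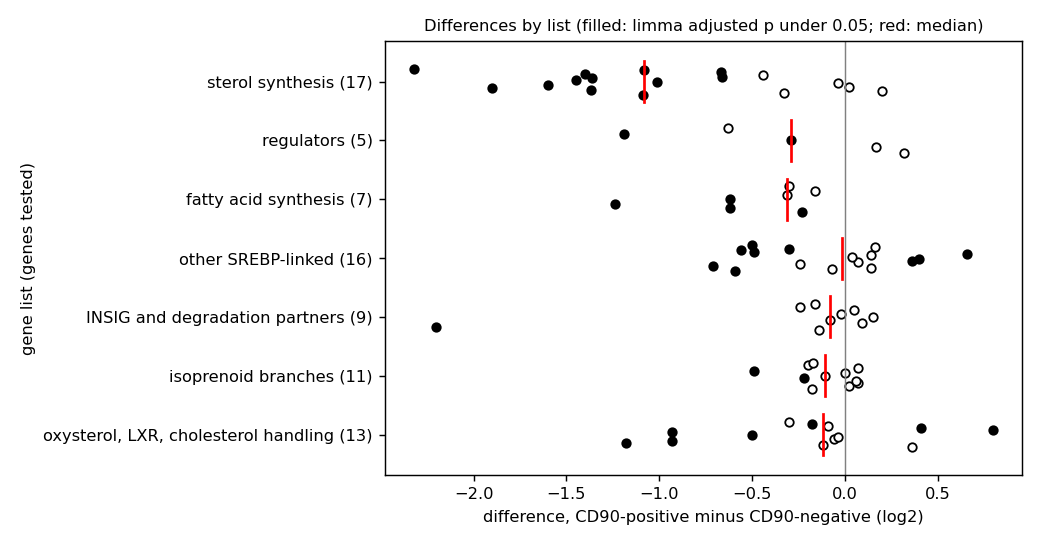
Differences between the populations (horizontal axis, log2, CD90-positive minus CD90-negative) for each tested gene of 7 lists; filled points have a limma adjusted p under 0.05, and red lines are list medians. The sterol list has its median at -1.08 and the other lists between -0.31 and -0.01.

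Other gene groups differed between the same populations and are given beside the sterol result. Their counts stand against 15.6% of all genes tested called lower and 13.9% called higher. Of 12 tested proliferation genes 5 fell and 0 rose, and the list mean was 7.26, 7.64, 7.63 and 7.65 in samples 13, 15, 17 and 19 and 6.9, 7.19, 7.15 and 7.18 in samples 14, 16, 18 and 20. Those that fell were Mki67, Top2a, Ccna2, Cdk1 and Mcm5, whereas Pcna, Tyms and Mcm6, the brightest of the list, were not called. The mean of Cdk1 lay under the negative control rows in both populations. The means of the others that fell lay under them in the CD90-positive population. Mki67, a marker of dividing cells, lay at 7.74 in sample 13 and at 9.03 to 9.06 in its CD90-negative companions. Of 11 tested immediate-early and dissociation response genes 7 rose and 0 fell, with list means between 13.33 and 13.91 in CD90-negative and between 14.18 and 14.31 in CD90-positive samples. Among them Atf3, a stress-induced transcription factor, rose from 13.09 ± 0.14 to 14.38 ± 0.13, Jun by 0.57 and Dusp1 by 0.69, and Fosb was not called.

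Of 9 tested enteric glia genes 8 rose and 0 fell, with list means from 5.65 to 6.09 and from 7.07 to 8.26. Kcna1, a potassium channel of glia, rose to 10.76 ± 1.0 and Cdh19 to 10.44 ± 1.2. All 8 that rose had CD90-negative means under the negative control rows, so the sizes of these differences are uncertain. The means of Gfap and Foxd3 lay under these rows in both populations. Ngfr was not called. Of 7 tested leukocyte genes 4 rose and 0 fell, over 11 measured genes with means from 5.39 to 5.68 and from 5.74 to 6.32. The 4 were the macrophage gene Cd68, the plasma cell gene Jchain, Cd3e and Cd79a, and Lyz2 was not called. The means of Cd3e and Cd79a lay under the negative control rows in both populations, and that of Jchain in the CD90-negative one. Of 8 tested endothelial genes Lyve1 and Prox1 fell, Tek rose and Pecam1 was not called. Prox1 lay under the negative control rows in both populations and Lyve1 in the CD90-positive one. Of 11 smooth muscle and pericyte genes 4 fell, namely Acta2, Tagln, Cspg4 and Kcnj8, and 6 rose, while Myh11 was not called. The 6 were Actg2, Cnn1, Des, Rgs5, Lmod1 and Notch3. Lmod1 and Notch3 lay under the negative control rows in both populations. Des lay under them in the CD90-negative population and Kcnj8 in the CD90-positive one. Among 12 pan-fibroblast genes Col1a2, Col6a1, Col6a2 and Col6a3 fell and Dcn, Lum and Vim rose, and Col3a1 and Fn1 were not called. The negative control rows had medians between 6.79 and 6.84 in CD90-negative and between 6.58 and 6.67 in CD90-positive samples. The part of these groups in the sterol and fatty acid results was not tested.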

How the data were processed

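RNA of 8 samples, 4 for each sorted population, was measured on 1-colour mouse transcriptome arrays. Per the labels' protocols, 2 ng of RNA was amplified and labelled by in vitro transcription. The authors deposited log2 values for each transcript cluster, made with Affymetrix Expression Console 1.1 and RMA, per the submitters' processing notes; the settings are not given in the sources used here. RMA corrects the background and quantile-normalizes the arrays, which can hide a shift shared by most genes, and amplification from so little RNA may widen the spread of dim clusters.

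Of 65956 clusters, 31085 named 1 gene, 1665 several and 33206 none, after symbols and synonyms were matched through gene identifiers to RefSeq's mouse annotation (GRCm38.p6). The array's build is not given, so no cluster coordinates are printed. Clusters had to reach 5.36, the median of all cluster values, in at least 4 samples. For the 17155 genes that passed, a 2-group linear model was fitted in limma 3.58.1 under R 4.3.3 with moderated variances and no block, two-sided, with Benjamini-Hochberg adjustment over all of them and a threshold of 0.05. This step was tested on simulated data.

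Alternatives changed the filter, normalization, variance model, array weights, cluster choice, block and samples. All members were named, with up to 4 genes of smallest p in each related pathway list, and in each marker list the 3 brightest and the called gene of smallest p. Other genes, Erlin2 among them, were chosen after their values were seen. Members and lists were chosen with earlier results of these data known. Python 3.11.15 and matplotlib 3.10.9 served for tables and figures.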

Additional observations from a re-analysis of the deposited data

Results flagged for a closer look

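In each population of 4 samples, the highest and the lowest value of each of the 29 genes were set against the others. In 7 of the 58 sets of 4 values, 1 sample's gap to the rest took up more of the whole range than Dixon's 95% critical value allows, where chance gives about 1 in 20. The 58 sets come from the same arrays and are not independent, so the share of 1 in 20 is only a rough guide. CD90-negative sample 13 lay above the rest for Idi1 (9.53 against 8.87 to 8.92), Fdft1 (9.13 against 8.36 to 8.48), Cyp51 (9.77 against 9.15 to 9.23) and Hsd17b7 (8.71 against 7.96 to 7.99). CD90-positive sample 14 lay below the rest for Dhcr7 (6.53 against 6.79 to 6.84) and above it for Scd1 (11.12 against 10.76 to 10.8). CD90-positive sample 18 lay below the rest for Cyp51 (7.98 against 8.29 to 8.35). Without sample 13, Idi1, Fdft1 and Cyp51 differed by -0.86, -1.19 and -0.94 and kept their calls.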

How the results depend on the processing

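Of the 18 members called lower, 16 kept their call in all 18 alternatives, and Scap and Acaca did not. The number of sterol genes called lower was 12 or 13 when 1 sample was left out and that called higher 0 or 1; it was 1 higher with array weights (Ebp) and 1 without samples 13 and 14 (Hsd17b7). Of the regulators, 1 to 3 were called lower and 0 to 1 higher when 1 sample was left out; 1 was called lower and 1 higher after another quantile normalization, and 1 higher with array weights and without samples 13 and 14. Among the partners of INSIG, 2 were called lower with centred arrays, 4 with array weights and 2 with the block. In the isoprenoid branches 4 were called lower with centred arrays, and 1 without a filter, after another quantile normalization and with the block; leaving out 1 sample gave 1 to 2. In the cholesterol handling list leaving out 1 sample gave 2 to 5 called lower. Ggps1 changed sign with centred arrays (-0.02) and array weights (-0.01) and ran from -0.02 to 0.05 when 1 sample was left out. Hsd17b7 changed sign after another quantile normalization (0.02), with array weights (0.22) and without samples 13 and 14 (0.34), and ran from -0.12 to 0.16 when 1 sample was left out. Fasn changed sign without samples 13 and 14 (0.04). The cause was not tested. No paired analysis was possible from the labels because the populations share no replicate numbers. As a stand-in, consecutive title numbers (13 with 14 and so on) were taken as a block: deviations from the population means correlated at 0.437, 0.355, 0.448 and 0.284 across genes within these pairs, but sample 19 correlated more with sample 18 (0.314) than with sample 20. The block added the call of Fads2 and changed no other call among the members. Genes near the negative control rows (Mvd and Lss in CD90-positive samples) are limited by signal over background.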

Other observations

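Genes of lipid storage and release, read only as adipocyte markers above, moved in both directions. Pparg was at 7.95, 6.86, 7.35 and 7.25 in CD90-negative samples 13, 15, 17 and 19 and at 10.7, 9.73, 10.32 and 10.36 in CD90-positive samples 14, 16, 18 and 20. It rose by 2.93 (SE 0.26, limma adjusted p = 5.45e-05), without overlap between the populations. Pnpla2, the lipase that starts the breakdown of stored triglycerides, fell from 8.48 ± 0.24 to 7.9 ± 0.1 (limma adjusted p = 0.00707). Fabp4, a fatty acid carrier of adipocytes, was at 5.91 ± 0.32 and 6.27 ± 0.37, under the level of the negative controls throughout, and was not called (difference 0.35, limma adjusted p = 0.247). Lipe, the hormone-sensitive lipase, was at 7.18 and 7.19 on average and was not called (difference 0.02, limma adjusted p = 0.924).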
